A study of Homo sapiens with 3 samples.

Results

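The polyamine synthesis and control genes are the 10 genes that carry the enzymes of polyamine synthesis (ODC1, AMD1, SRM and SMS), the enzymes of polyamine breakdown (SAT1, SMOX and PAOX) and the regulators of ornithine decarboxylase (OAZ1, OAZ2 and AZIN1). The rule takes them by symbol, and all 10 were found by Ensembl identifier among the 62754 genes of the deposited table. RNA-seq was measured in 3 replicates of MCF10A, an immortalized, non-tumorigenic human breast epithelial cell line, in the setting of a study that fed transcript levels and metabolite exchange fluxes into genome-scale metabolic models. All 3 replicates carried an empty vector of the Retro-X Tet-One inducible system and had been selected with puromycin. Apart from the vector itself they held no inserted gene. They were harvested without doxycycline or other treatment, and by the methods were sampled 27 h after seeding. Their titles and library names give no batch, and they were treated as 1 batch. By the methods, 300 ng of RNA went into each library, with depletion of ribosomal RNA. With 1 condition, there was no group to compare with another, and the comparisons below are between genes and between replicates. Nothing states that the replicates were separate cultures, so the spread between them, and any p-value that rests on it, may be technical.

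Polyamines (putrescine, spermidine and spermine) are small, positively charged molecules that bind nucleic acids and are needed for growth and for translation. Ornithine decarboxylase makes putrescine from ornithine, and spermidine synthase and spermine synthase then add aminopropyl groups that come from decarboxylated S-adenosylmethionine. Breakdown runs through acetylation followed by oxidation, or through direct oxidation of spermine, and antizymes bind ornithine decarboxylase and send it to the proteasome when polyamines are plentiful.

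Several steps of this control act on the mRNAs of these genes, and the sequences of those elements are shown first because the levels given below are those of the mRNAs alone. The antizyme mRNAs are translated in full only when the ribosome shifts by 1 base at an in-frame stop codon, a step that polyamines favor. Both stretches run 5′ to 3′ in 30 bases of the hg38 reference, with the stop codon that the shift avoids in capitals.
OAZ1 frameshift site, chr19:2271429-2271458, plus strand: ctcggtggtgctccTGAtgcccctcaccca
OAZ2 frameshift site, chr15:64691500-64691529, minus strand: ctctgtggtgctccTGAtgcccctcaccca
The stretches of OAZ1 and OAZ2 were the same at 29 of 30 positions. In both, the annotated coding sequence leaves out the T of the stop codon, at base 15 of the stretch. In OAZ1 68 codons come before that base and in OAZ2 32, within annotated coding sequences of 684 and 567 bases.

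The AMD1 mRNA carries a short upstream open reading frame in its leader, through which polyamines are known to reduce translation of the enzyme. It is shown with its start and stop codons in capitals.
AMD1 upstream reading frame, chr6:110874796-110874816, plus strand: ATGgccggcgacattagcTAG
This frame holds 6 codons before its stop, starts at base 12 of the canonical transcript and is the only ATG ahead of the main start at base 322. The leader of ODC1 likewise held 1 upstream ATG, which opens a frame of 10 codons.

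ODC1 is a textbook target of the transcription factor MYC, which binds the E-box CACGTG as a dimer with MAX. The RefSeq promoter table (GRCh38.p14; 250 bases before to 50 after a start) matched 7 of the 10 genes with 10 windows, and SMOX, PAOX and AZIN1 were not matched. CACGTG, which reads the same on both strands, occurred in windows of ODC1 and SRM, and is shown in capitals.
ODC1, chr2:10447990-10448053, minus strand: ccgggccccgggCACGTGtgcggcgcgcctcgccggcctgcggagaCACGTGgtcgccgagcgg
SRM, chr1:11060200-11060229, minus strand: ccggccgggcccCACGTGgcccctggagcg
The 2 matches of ODC1 lie 286 and 320 bases downstream of the canonical start, in intron 1, and the match of SRM starts at -199 from its start. Of all 35116 windows in the table, 7.26% held CACGTG and 0.664% held it at least 2 times. TATAA, searched on the strand of the gene, occurred in windows of ODC1, AMD1 and OAZ1. Of all windows, 14.8% held it, a share by window and not by gene. From the start of the window's transcript, the match begins at -32 in ODC1, at -28 or -29 in AMD1 and at 6 in OAZ1. The start used for OAZ1 lies at -34 from its canonical start. These letters are a description of the reference, and binding was not measured.

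Before the levels, the replicates were compared. The libraries held 15273329, 15446347 and 11166546 reads on genes, as rebuilt from the deposited values, and replicate 3 stood apart from the other two. The unit is TPM, reads divided by gene length and scaled to a total of 1000000 in each library. Over the 8804 genes that averaged 10 TPM or more, the median log2 ratio was -0.25 for replicate 3 over replicate 1 and -0.013 for replicate 2 over replicate 1. Of those genes, 92.8% were lower in replicate 3 than in replicate 1. Epithelial markers were high in these cells, with KRT5 at a mean of 6612 TPM, KRT14 at 4144 and KRT17 at 2669, and TP63 at 49.8, CDH1 at 29.1 and EPCAM at 14.6 were above 1 TPM. Markers of other cells were lower, with PTPRC of leukocytes at 0.0728 TPM, PDGFRB of pericytes at 0.271, PECAM1 of endothelium at 1.77 and COL1A1 of fibroblasts at 4.96. The luminal receptors ESR1 and PGR had means of 0.0345 and 0.00485 TPM.

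By mRNA level, the synthesis genes were abundant, SAT1 was the highest of the breakdown genes, and OAZ1 and AZIN1 were the highest of the control genes. A mean of at least 1 TPM, the cutoff at which the study took an enzyme as expressed, was reached by 9 of the 10 genes, PAOX being the exception, against 56.7% of 20046 protein-coding genes. The median of the 10 genes was 129 TPM, beside 24.9 TPM for the 11360 protein-coding genes at or above the cutoff and 3.75 TPM for all protein-coding genes. Of the 10 genes, 7 were among the top 25% of the expressed protein-coding genes and 5 among the top 10%. Together they took 0.194%, 0.188% and 0.163% of all TPM in the 3 replicates.

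**Figure D1:**
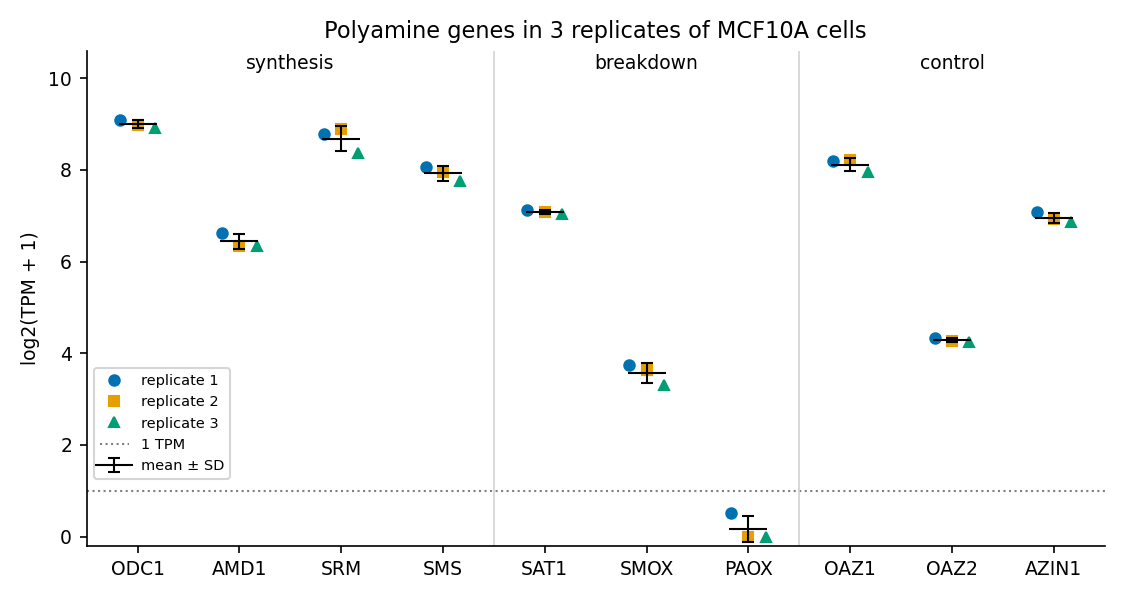
Level of each gene as log2(TPM + 1) in the 3 replicates (points), with the mean and SD (lines) and the genes ordered by role; the dotted line marks 1 TPM. ODC1 and SRM stand highest, and PAOX is the only gene under the line.

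Of the synthesis enzymes, ODC1 (ENSG00000115758, chr2:10439968-10448327, minus strand), which carries out the first and usually limiting step, was highest, at 544, 501 and 484 TPM in replicates 1 to 3. Its mean of 509.6 ± 31.4 TPM (SD, n = 3) was number 219 among protein-coding genes and in the top 1.93% of expressed ones, and rested on 7539, 7128 and 5697 reads. SRM (ENSG00000116649, chr1:11054584-11060020, minus strand), the spermidine synthase, came next at 438, 474 and 329 TPM. Its replicate 3 was well under the other two, and its mean was 414 ± 75.6 TPM, or 456 without that replicate. SMS (ENSG00000102172, chrX:21940709-21994837, plus strand), the spermine synthase, was at 267, 247 and 215 TPM, with a mean of 243 ± 26.3 TPM. AMD1 (ENSG00000123505, chr6:110874770-110898879, plus strand), the S-adenosylmethionine decarboxylase that supplies the aminopropyl donor, was the lowest of the 4 at 97.8, 80.3 and 80.5 TPM. With a mean of 86.2 ± 10.07 TPM, it was still in the top 16.4% of expressed protein-coding genes.

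The ratio of ODC1 to AMD1, the 2 decarboxylases, was taken within each replicate. It was 5.93-fold, with log2 ratios of 2.48, 2.64 and 2.59 (mean 2.57 ± 0.084). The synthases were closer, with SRM above SMS 1.69-fold and log2 ratios of 0.72, 0.94 and 0.62 (mean 0.76 ± 0.16). Both ratios had the same sign in all 3 replicates. An exact sign-flip permutation test, two-sided, gave p = 0.25, which is the smallest that 3 replicates allow and stayed 0.25 after adjustment, and it was the same for each of the 7 ratios tested, so the design cannot reach a threshold of 0.05.

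Of the breakdown enzymes, SAT1 (ENSG00000130066, chrX:23783173-23786210, plus strand), which acetylates spermidine and spermine and so opens the way to oxidation and export, was at 139, 135 and 131 TPM. On the deposited scale it was among the steadiest of the 10 genes, at 135 ± 4.05 TPM. SMOX (ENSG00000088826, chr20:4120980-4187747, plus strand), which oxidizes spermine directly, was at 12.5, 11.5 and 8.96 TPM, from 152, 144 and 93 reads. Its mean of 11.0 ± 1.81 TPM lay in the lower part of the expressed range, with 71.8% of expressed protein-coding genes at or above it. SAT1 was thus 12.4-fold higher than SMOX, with log2 ratios of 3.48, 3.55 and 3.87 (mean 3.63 ± 0.21).

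PAOX (ENSG00000148832, chr10:133379261-133391694, plus strand), the peroxisomal enzyme that oxidizes acetylated polyamines, had 4 reads in replicate 1 and 0 in the other two. The 4 reads were 0.416 TPM, with an exact Poisson 95% interval of 0.113 to 1.07 TPM. The 0 reads of replicates 2 and 3 allow up to 0.304 and 0.367 TPM, taking 3 reads as the limit. These bounds cover counting error only. Per length, the 389 reads of SMOX over all replicates were 76.6 times the 4 of PAOX, with an exact 95% interval of 29.7 to 283. The PAOX values are uncertain for another reason: 75.0% of the bases of its canonical transcript are also exon bases of ENSG00000254536, on the same strand, and how reads on shared bases were assigned is not given in the sources used here. That gene had 5, 21 and 10 reads, or 0.404, 1.65 and 0.950 TPM. A low level of PAOX was therefore measured only for reads that were assigned to it. In bulk RNA, a low level in all cells and a higher level in few cells cannot be told apart.

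Of the regulators, OAZ1 (ENSG00000104904, chr19:2269509-2273490, plus strand), the main antizyme, was at 290.0, 294 and 245 TPM, from 4327, 4516 and 3115 reads. Its mean was 277 ± 27.1 TPM, in the top 4.16% of expressed protein-coding genes. OAZ2 (ENSG00000180304, chr15:64687573-64703281, minus strand), a second antizyme, was at 19.2, 18.3 and 17.97 TPM, with a mean of 18.5 ± 0.627 TPM. OAZ1 was 14.9-fold above OAZ2, with log2 ratios of 3.92, 4.01 and 3.77 (mean 3.90 ± 0.12). AZIN1 (ENSG00000155096, chr8:102826111-102893864, minus strand), a relative of ornithine decarboxylase that has no activity of its own and frees the enzyme by binding antizyme, was at 134, 121 and 115 TPM, with a mean of 123 ± 9.66 TPM. AZIN1 was lower than OAZ1 in all replicates, by 2.24-fold (mean log2 ratio of OAZ1 to AZIN1 1.17 ± 0.10).

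The levels of ODC1 and AZIN1, whose proteins antizyme binds, were also compared. Their log2 ratios of AZIN1 to ODC1 were -2.03, -2.05 and -2.07, a mean of -2.05 ± 0.024, with ODC1 4.14-fold higher. This was the smallest SD among the 7 ratios. Whether it is small among pairs of genes at large was not tested. By the deposited values, OAZ1 was also under ODC1, which was 1.85-fold higher (log2 ratios of OAZ1 to ODC1 -0.91, -0.77 and -0.98, mean -0.88 ± 0.11), but the direction of this ratio depended on the gene length used, as described next.

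The deposited TPM divides the reads of a gene by its longest annotated transcript. For 3 of the 10 genes that transcript was over 1.5 times as long as the canonical one, against 13.5% of expressed protein-coding genes. For OAZ1 it is a retained-intron transcript of 1 exon and 2832 bases, where the canonical mRNA has 1148 bases. For OAZ2 it is a retained-intron transcript of 7102 bases against 1934, a ratio of 3.67, and for AMD1 it is a protein-coding transcript of 6589 bases against 3423, a ratio of 1.92. With TPM rebuilt on canonical lengths, the median expressed gene moved by -0.29 on the log2 scale, while these 3 genes moved up.

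On canonical lengths OAZ1 was the highest of the 10 genes, at 582, 590.4 and 503 TPM (558 ± 48.0). ODC1 was at 469.7, 432 and 427 TPM (443 ± 23.5), under OAZ1 in every replicate and with no overlap. The mean log2 ratio of OAZ1 to ODC1 changed from -0.88 to 0.33, so that OAZ1 was 1.26-fold higher. OAZ2 was at 55.5 ± 1.45 TPM and AMD1 at 135 ± 14.998 TPM on this scale, above SAT1 at 119 ± 2.39 and AZIN1 at 109 ± 7.62. The ratio of ODC1 to AMD1 narrowed from 5.93-fold to 3.28-fold (mean log2 ratio 1.71). The antizyme ratio narrowed to 10.04-fold, and OAZ1 stood 5.10-fold over AZIN1. The order of the enzymes ODC1, SRM and SMS among themselves was the same on both scales, with SRM at 337 ± 57.7 and SMS at 198 ± 19.2 TPM. Which transcripts the cells made was not measured, so these values leave the order of OAZ1 and ODC1 undetermined.

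**Figure D2:**
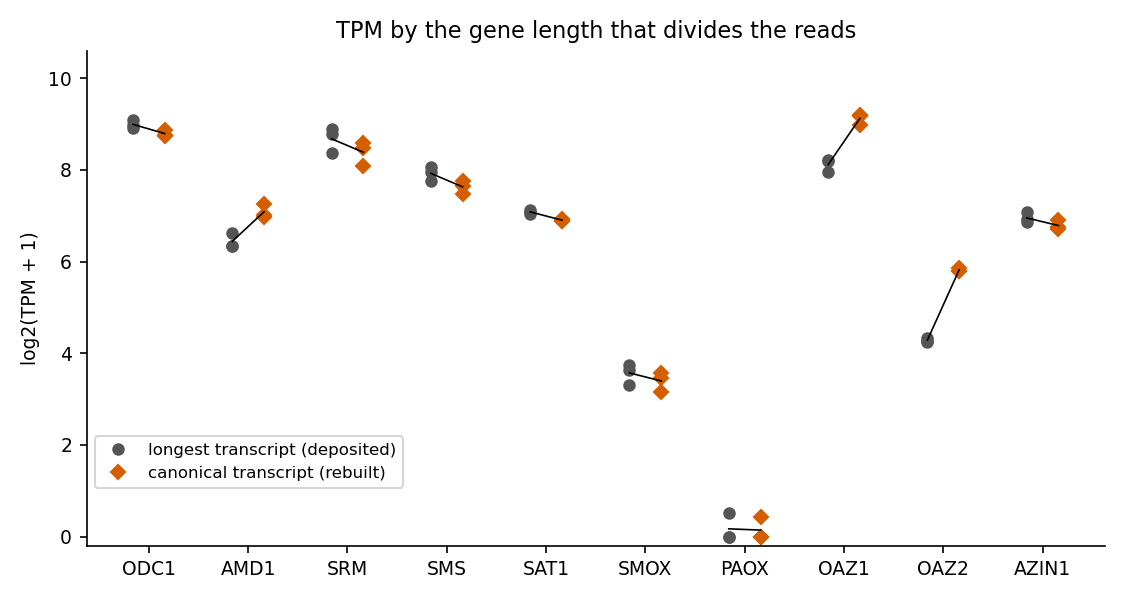
Level of each gene as log2(TPM + 1) in the 3 replicates, with the deposited TPM on the longest transcript (circles) and TPM rebuilt on the canonical transcript (diamonds); lines join the means. OAZ1, OAZ2 and AMD1 move up and the other genes move down, so that OAZ1 passes ODC1.

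Within each scale the order of the 10 genes was steady. On the deposited scale it ran ODC1, SRM, OAZ1, SMS, SAT1, AZIN1, AMD1, OAZ2, SMOX and PAOX, and all 45 pairs of genes stood in the same order in all 3 replicates. The neighbors nearest in ratio were SAT1 and AZIN1, 11.6 ± 5.77 TPM apart within replicates. ODC1 and SRM, 96.0 ± 64.4 TPM apart, were the least clear of their spread, although ODC1 was higher in all 3 replicates. Every pair of neighbors differed by more than the SD of either gene. Canonical lengths turned 4 of the 45 pairs. A shared order across replicates therefore holds within a choice of gene length and not across choices.

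By role, the 4 synthesis genes summed to 1347, 1302 and 1107 TPM (1252 ± 127), and the 3 breakdown genes to 152, 146 and 139.6 TPM (145.8 ± 6.01). The breakdown sum was 0.117 ± 0.0079 of the synthesis sum, and 0.116 on canonical lengths. The 3 control genes summed to 443, 434 and 378 TPM (418 ± 35.0), and to 723 ± 53.5 TPM on canonical lengths. The antizyme sum of OAZ1 and OAZ2, set over the sum of ODC1 and AZIN1 that antizyme binds, was 0.466 ± 0.0329 as deposited and 1.11 ± 0.076 on canonical lengths. The ratio of breakdown to synthesis was thus nearly the same on both scales, while the antizyme ratio was under 1 on the deposited scale and over 1 on the other.

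The replicates of several of these genes differed by more than counting error. In a chi-square test of each gene's reads against equal TPM in the 3 replicates, which compares these libraries and covers counting error only, 6 of the 9 genes with at least 15 reads were called at an adjusted p under 0.05, beside 54.3% of all 15802 genes tested. The 6 were ODC1, AMD1, SRM, SMS, OAZ1 and AZIN1. They are deeply read: the median of the 9 genes tested was 7952 reads, against 750.5 over all genes tested, and a test of counts calls small differences at such depth. The adjusted chi-square p was 1.59e-34 for SRM, the most uneven, whose CV between replicates was 18.3% against 1.999% from counting. SAT1 and OAZ2 were not called, with adjusted chi-square p of 0.589 and 0.548, and their CVs of 3.004% and 3.39% were no larger than the 3.62% and 3.90% that counting gives. SMOX was not called either (adjusted chi-square p 0.0685), at a counting CV of 8.996%, and PAOX had too few reads to be tested.

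Part of this spread moved with replicate 3 as a whole. All 9 genes with reads in every replicate were lower in replicate 3 than in replicate 1, as were 92.8% of genes with at least 10 TPM. The log2 ratio of replicate 3 to replicate 1 ran from -0.48 in SMOX and -0.42 in SRM, through -0.31 in SMS, -0.28 in AMD1, -0.24 in OAZ1 and -0.22 in AZIN1, to -0.17 in ODC1, -0.095 in OAZ2 and -0.087 in SAT1. The median over genes was -0.25. After scaling each replicate by its median ratio, 4 of the 9 genes were called (ODC1, AMD1, SRM and AZIN1), beside 31.2% of genes. The log2 SD was then 0.019 in OAZ1, 0.048 in SMS, 0.102 in SAT1 and 0.102 in OAZ2. SAT1 and OAZ2 stayed uncalled, with adjusted chi-square p of 0.076 and 0.090. Without replicate 3, 5 of the 9 were called beside 21.3% of genes, and the means of the 9 genes were higher by 1.43% in OAZ2 to 10.3% in SRM. Without replicate 1, 3 of the 9 were called (SRM, SMS and OAZ1), beside 46.7% of 14770 genes. The part of library quality in these differences was not tested.

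**Figure D3:**
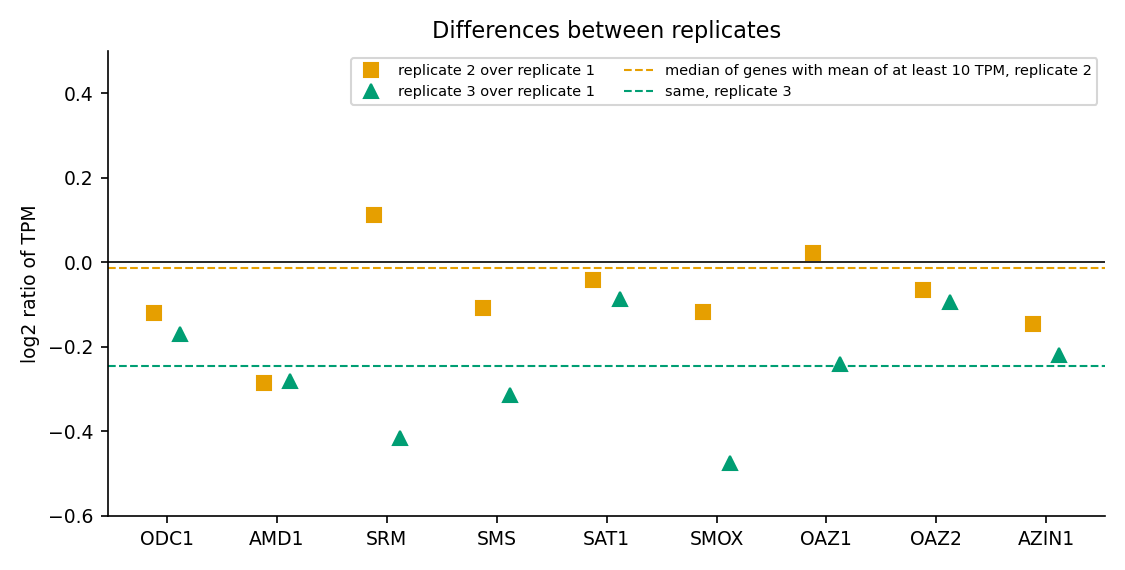
log2 ratio of TPM to replicate 1 for the 9 genes with reads in all replicates, with replicate 2 as squares and replicate 3 as triangles; dashed lines mark the median over genes averaging 10 TPM or more. All triangles lie under 0, at -0.087 to -0.48, on both sides of their median of -0.25.

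On the log2(TPM + 1) scale the median SD between replicates was 0.15 for the 10 genes and 0.19 for the 15632 annotated genes at or above 1 TPM. After median-ratio scaling these were 0.10 and 0.13. Before median-ratio scaling, SRM had the largest SD apart from PAOX, 0.28, and SAT1 the smallest, 0.043. After it, SAT1 was at 0.102 and the smallest SD was that of OAZ1, 0.019.

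Pseudogenes annotated under the symbols of these genes were assigned almost no reads. How reads that match both a gene and its copy were treated is not given in the sources used here. Of 11 annotated pseudogenes (ODCP, AMD1P1 to AMD1P4, of which AMD1P2 is annotated on X and on Y, SRMP1 to SRMP3, SMSP1 and OAZ1P1), 10 were at 0 reads in all replicates, and AMD1P3 had 1 read. ODC1-DT, the divergent transcript of ODC1, had 14 reads and a mean of 0.212 TPM. Other genes share exon bases with SAT1 (8.58% of its canonical transcript), OAZ1 (19.2%) and AZIN1 (3.79%) on the same strand, and these partners were at 0 reads. How reads on shared bases were assigned is not given. The 0 reads of the partners therefore do not show that SAT1, OAZ1 and AZIN1 kept all such reads. JSRP1 covers 19.6% of OAZ1 on the opposite strand, and strand use in counting is not given in the sources used here, so reads on those bases cannot be told apart.

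The neighbors of the pathway were described from a list of 31 genes. Of these, 20 had a mean of at least 1 TPM, beside 56.7% of all protein-coding genes, and 5 had no reads. Whether the list differs from that share was not tested. For ornithine supply, 2 of 4 genes reached the cutoff. OAT, the mitochondrial ornithine aminotransferase, was at 242, 216 and 239 TPM (232 ± 14.5), and ARG2, the mitochondrial arginase, at 26.5 ± 0.675 TPM. On the opposite strand VTI1B covers 47.3% of the canonical transcript of ARG2. With strand use in counting not given, the value of ARG2 is uncertain. ARG1, the liver arginase, and AGMAT had 0 reads. For S-adenosylmethionine supply, 2 of 3 did so. MAT2A, the catalytic subunit outside liver, was at 513, 489 and 412 TPM (471 ± 52.8), and its partner MAT2B at 59.7 ± 6.47 TPM. The same limit holds for MAT2A, of which GGCX covers 20.0% on the opposite strand. The longest transcript of MAT2B retains an intron, and on canonical lengths MAT2B was at 104 ± 10.8 TPM and MAT2A at 384 ± 38.5 TPM. The liver form MAT1A was at 1.12, 0.383 and 0.463 TPM, from 20, 7 and 7 reads, so that replicate 1 alone was above the cutoff and the mean of 0.657 TPM rests on it. MAT2A was under ODC1 in each replicate, and ARG2 was well under OAT.

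Of the 4 paralogs, SAT2 alone reached the cutoff, at 32.7, 36.8 and 27.4 TPM (32.3 ± 4.68). AZIN2, OAZ3 and SATL1 were at 0.763, 0.758 and 0.0166 TPM. The longest transcript of SAT2 is a retained-intron one, and on its canonical length SAT2 was at 45.3 ± 6.08 TPM. OAZ3, the testis antizyme, had 2.64 TPM on its canonical length. Exons on the opposite strand cover 46.7% of that transcript, TDRKH among them, so the value of OAZ3 is uncertain too. AOC1, the diamine oxidase that breaks down putrescine outside cells, was under the cutoff at 0.841 TPM, and above it in replicate 2 alone.

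Of 11 genes linked to polyamine transport, 7 reached the cutoff. SLC3A2, a heavy chain of amino acid transporters that has been linked to polyamine export, was highest at 271, 279 and 233 TPM (261 ± 24.8). Its longest transcript is a retained-intron one, and on its canonical length SLC3A2 was at 321 ± 26.6 TPM. ATP13A3, a P5B-type ATPase of polyamine uptake, was at 103, 93.3 and 85.8 TPM (94.1 ± 8.67), and its lysosomal relative ATP13A2 at 24.1 ± 5.45 TPM. The related ATP13A4 and ATP13A5 had 0 reads, as had SLC22A2. SLC18B1, a vesicular polyamine carrier, was at 52.4 ± 2.91 TPM. SLC12A8, SLC47A1 and SLC22A3 had means of 16.8, 11.3 and 1.24 TPM. Transport was thus represented by ATP13A3 and ATP13A2 among the 4 ATPases of this family.

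Spermidine is the donor for hypusine, a modified lysine found in the translation factor eIF5A. All 5 genes of this branch had a mean of at least 1 TPM, EIF5AL1 only just. EIF5A was at 1751, 1703 and 1496 TPM (1649.8 ± 136), in the top 0.519% of expressed protein-coding genes and above all 10 polyamine genes. DOHH, the hydroxylase of the last step, was at 19.1 ± 1.33 TPM and EIF5A2 at 5.65 TPM. DHPS, the synthase of the first step, was listed at 3.18 ± 0.532 TPM, but ENSG00000285589 shares 86.0% of the bases of its canonical transcript, so its value is uncertain. EIF5AL1 was at 1.60, 0.756 and 1.03 TPM, with a mean of 1.13 ± 0.432 TPM that rests on replicate 1. With TPM rebuilt on canonical lengths for all genes, the mean was 0.919 TPM, under the cutoff, although its own length of 3908 bases did not change. EIF5AL1 is a near copy of EIF5A, and reads of both may have been split between them.

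Of the transcription factors, all 3 reached the cutoff. MYC was at 451, 445 and 323 TPM (406 ± 72.6), with replicate 3 well under the other two. Its partner MAX was at 51.8 ± 7.89 TPM, and NFE2L2, which has been linked to SAT1, at 68.98 ± 5.63 TPM. The longest transcript of NFE2L2 is again a retained-intron one, and on its canonical length NFE2L2 was at 117 ± 8.40 TPM. MAX, whose longest transcript is also longer than its canonical one, was at 66.3 ± 9.32 TPM on its canonical length. With 1 condition, no relation of MYC to ODC1 or SRM could be tested.

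**Figure D4:**
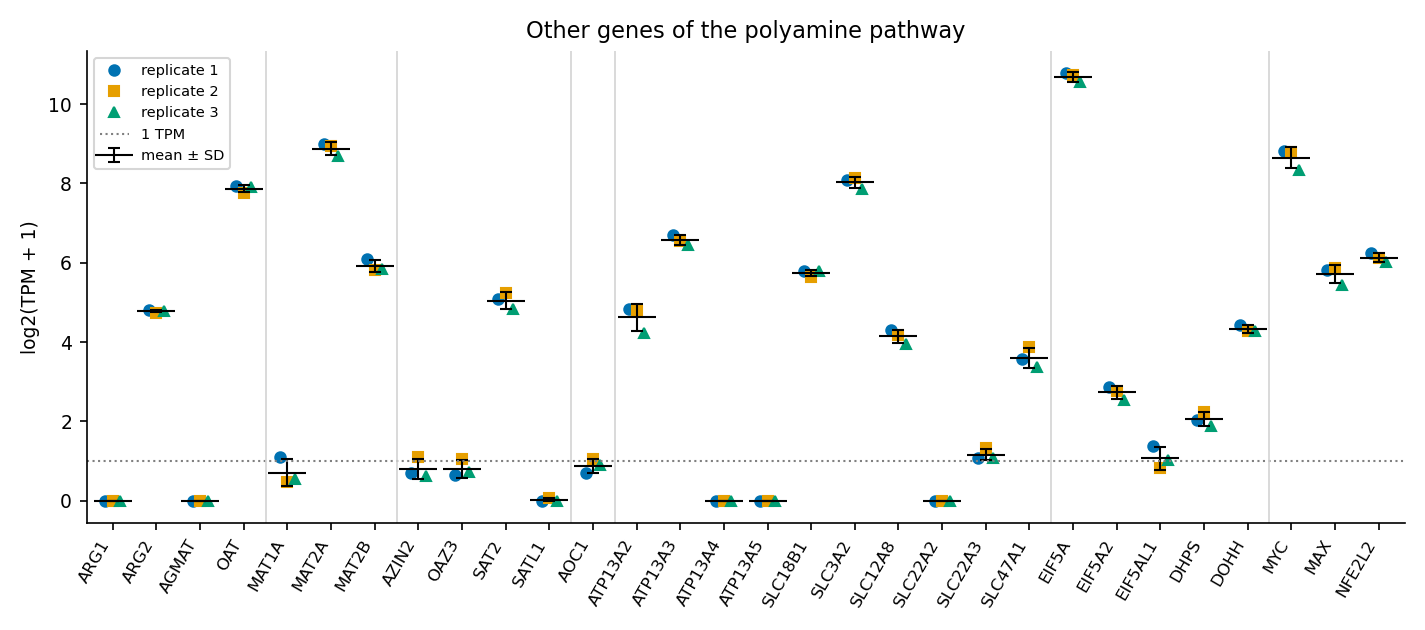
Level of 30 of the 31 other genes of the pathway as log2(TPM + 1) in the 3 replicates (points), with the mean and SD (lines), in the groups ornithine supply, S-adenosylmethionine supply, paralogs, terminal oxidation, transport, hypusination and transcription factors from left to right; the dotted line marks 1 TPM. EIF5A stands highest at a mean of 1649.8 TPM, followed by MAT2A and MYC. A mean of at least 1 TPM is reached by 20 of 31 genes, beside 56.7% of all protein-coding genes.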

How the data were processed

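Total RNA of 3 replicates of MCF10A cells was sequenced after depletion of ribosomal RNA. The authors deposited 1 table of TPM for 62754 genes, which sums to 1000000 in each replicate, and by their methods the reads were mapped to hg38 and counted by Seq2science. The submitters' processing notes name fastp, STAR and MultiQC, and the builds hg38 and GRCh38.p14. Which annotation was counted, and whether strand was used, is not given in the sources used here. Columns were matched to samples by library name, and 0 columns of values were unused.

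TPM was used as deposited. With GENCODE release 44, which held 62700 of the genes, TPM times the length of the longest transcript, less 1 base per exon, gave whole reads for 100% of values (tolerance 0.01), on the assumption that the smallest step is 1 read. Depth was 11166546 to 15446347 reads. TPM was also rebuilt from these reads on the Ensembl canonical transcript and, chosen after seeing the data, on the longest protein-coding transcript. Reads were compared between replicates with a chi-square test, adjusted by Benjamini-Hochberg over 15802 genes with at least 15 reads. Ratios within replicates were tested by an exact sign-flip permutation test. The ratio of SMOX to PAOX was left out of that test because PAOX had 0 reads in 2 replicates, and 7 ratios were tested. Scaling by the median ratio used genes with at least 10 TPM, and SD values are on log2(TPM + 1), with a pseudocount of 1. On reads simulated with counting error only and large changes set in replicate 3, the chi-square test called 100% of 200 changed genes. It gave p under 0.05 in 5.26% of 15614 unchanged genes. These settings check the code and do not show how the test behaves on the smaller differences between these libraries.

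The named genes are the 10 genes, the 31 pathway genes, of which 1 is counted but not reported here by itself, and annotated pseudogenes and antisense or divergent transcripts of the 10. Genes sharing exon bases with them were named after their values were seen. The members and lists were chosen with earlier results of these data known. No likeness of pattern across samples is given, because all samples are of 1 condition. The tools were Python 3.11.15 with scipy 1.17.1, pandas 2.3.3, numpy 2.4.6 and, for figures, matplotlib 3.10.9.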

Additional observations from a re-analysis of the deposited data

How the results depend on the processing

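No paired analysis was possible because there is only 1 condition. The count of 9 genes at or above 1 TPM was the same under every alternative run (without each replicate, cutoffs of 0.5 and 2 TPM, the median, TPM over nuclear protein-coding genes, and canonical and longest protein-coding lengths). The pathway count of 20 ran from 18 to 24. The mean log2 ratio of OAZ1 to ODC1 reversed from -0.88 to 0.33 on canonical lengths and to 0.43 on longest protein-coding lengths, the last chosen after seeing the data. By construction these replace the retained-intron transcript of OAZ1. The other 6 ratios kept their sign under these lengths and without each replicate. Leaving out each replicate, the chi-square test called 3 (without replicate 1) to 7 (without replicate 2) of 9 genes, beside 46.7% of all genes in both cases, against 6 beside 54.3% with all replicates. It called 5 beside 21.3% without replicate 3, and 4 beside 31.2% after median-ratio scaling. The median SD of log2(TPM + 1) was 0.15, and ran from 0.043 without replicate 1 to 0.18 without replicate 2. It was 0.078 without replicate 3 and 0.081 for TPM over nuclear protein-coding genes. The cause of these shifts was not tested. Depth limits PAOX, for which the 3-read limit was 0.304 to 0.367 TPM. TPM gives relative levels of mRNA and not of protein or enzyme activity.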
